A study of Mus musculus with 2 samples.

Results

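The spots with the highest share of Plin2 were examined in liver sections profiled by spatial transcriptomics (ST). Plin2 encodes perilipin-2, a coat protein of lipid droplets, and lies on the minus strand of chromosome 4, from 86648386 to 86670060 in GRCm38. A spot captures RNA from a small patch of tissue in which several cells, often of more than 1 type, lie together. The Plin2-rich spots were chosen by their own readout: Plin2 unique molecular identifiers (UMIs) were divided by all UMIs of a spot, and the top 10% of spots in each library were taken. They numbered 468 of 4680 kept spots, with 214 of 2140 in the AEG-1ΔMAC library and 254 of 2540 in the AEG-1fl/fl library. The other 4212 kept spots are called remaining spots below.

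Each genotype had 1 library from 1 liver section, and both sections lay on the same slide. AEG-1ΔMAC mice, written AEG-1DMAC in the labels, carried floxed AEG-1 (gene symbol Mtdh) deleted by Cre under the Lyz2 promoter, which acts in myeloid cells and leaves hepatocytes intact. AEG-1fl/fl littermates carried the floxed gene without the deletion, and both were of C57BL/6J background. The mice were 27 weeks old. Per the labels both had received a high-fat/high-sugar diet (HF/HSD) that began at 7 weeks and lasted 20 weeks. The study's text instead describes ST on littermates fed control diet (CD), and the diet of these sections could not be settled from the sources used here.

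Lipid droplets store triglyceride in hepatocytes. Perilipin-2 covers them in hepatocytes at rest and in steatosis, and the protein is widely used as a marker of fat in the liver. The other coat proteins, the enzymes that make triglyceride and the lipases that release fatty acids from it act at the same surface or next to it. The liver lobule runs from the portal vein (periportal, PP, zone 1) through the mid-lobule (ML, zone 2) to the central vein (pericentral, PC, zone 3), and many liver genes are expressed along this axis in opposite gradients.

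The kept spots held 45453286 UMIs in AEG-1ΔMAC compared with 50322850 in AEG-1fl/fl. The Plin2-rich spots accounted for 4211448 and 4520649 of these. They were shallower than the remaining spots, with a median of 19688.5 against 21119 UMIs in AEG-1ΔMAC and 16162.5 against 18581 in AEG-1fl/fl. Alb, the albumin gene that marks hepatocytes, made up 8.87% of UMIs in Plin2-rich and 8.79% in remaining spots of AEG-1ΔMAC, and 13.8% and 14.2% in AEG-1fl/fl. Both libraries used 1782 of the same spot barcodes, 16 of them in Plin2-rich spots of both. Mtdh was measured at 62.0 counts per 1000000 UMIs (CPM) in Plin2-rich and 66.8 CPM in remaining spots of AEG-1ΔMAC, and at 69.5 and 59.3 CPM in AEG-1fl/fl. Hepatocytes keep the gene, and where its probe lies relative to the deleted part was not known, so these values do not check the deletion. With 1 library per genotype no hypothesis test was possible, and every interval below is a 95% interval that covers counting error only.

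Plin2 was present almost everywhere. At least 1 Plin2 UMI was present in 99.6% of the spots of AEG-1ΔMAC and in 99.8% of those of AEG-1fl/fl, with 9 and 6 spots at 0. In AEG-1ΔMAC, Plin2-rich spots held from 1 to 23 Plin2 UMIs, with a median of 14, and remaining spots held from 0 to 25, with a median of 8. In AEG-1fl/fl, Plin2-rich spots held from 3 to 33, with a median of 15, and remaining spots from 0 to 34, with a median of 10. The raw UMI ranges of the groups therefore overlapped in each library, and the ranking separated them by share alone.

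On the CPM scale, Plin2-rich spots of AEG-1ΔMAC ran from 605.6 to 1071 with a median of 679.0, and remaining spots reached 605.2 with a median of 378.6. In AEG-1fl/fl the Plin2-rich spots ran from 787.7 to 1425 with a median of 866.4, and remaining spots reached 786.1 with a median of 513.0. These values are what the spots were selected on and are given as a description only. At the threshold, the last spot inside in AEG-1ΔMAC had 15 Plin2 UMIs of 24769 and the first spot outside had 12 of 19829. In AEG-1fl/fl these were 21 of 26660 and 14 of 17809. Within 5% of the threshold lay 136 AEG-1ΔMAC spots and 168 AEG-1fl/fl spots, and the plot of Plin2 levels over spots shows a single peak in each library with no gap at the threshold.

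**Figure D1:**
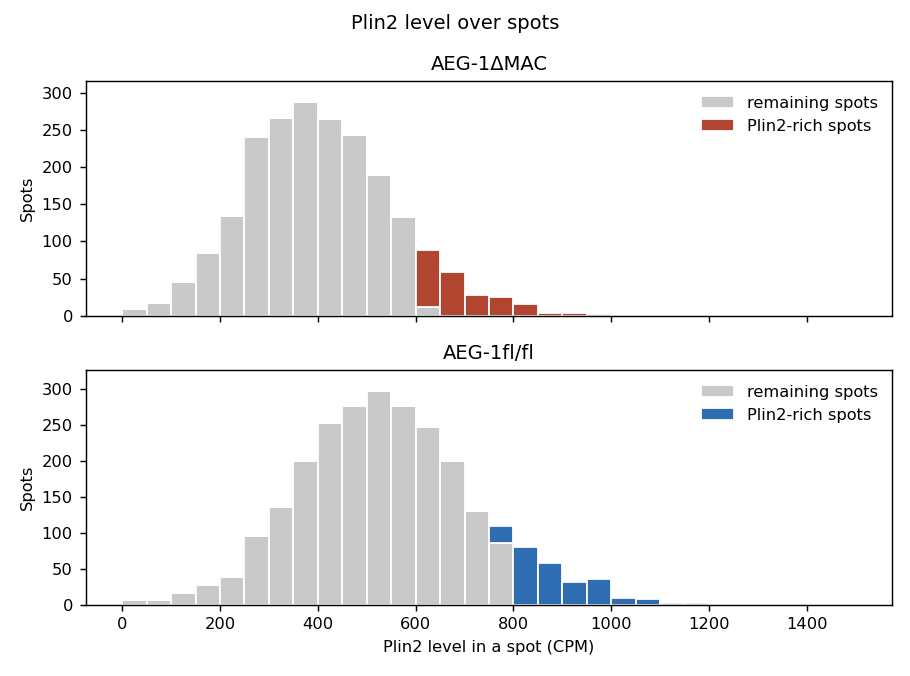
Number of spots (vertical axis) by Plin2 level in CPM (horizontal axis, steps of 50 CPM), with remaining spots in grey and Plin2-rich spots in colour, for AEG-1ΔMAC (top) and AEG-1fl/fl (bottom). Each library forms 1 peak, with medians of the remaining spots at 378.6 and 513.0 CPM, and the Plin2-rich spots are its upper flank.

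To measure Plin2 in the chosen spots with UMIs that had not chosen them, the UMIs of each spot were divided at random into 2 equal parts, the top 10% of spots were taken on the first part, and Plin2 was read in the other. In AEG-1ΔMAC the chosen spots stood at 814.5 CPM against 367.9 in the part that chose them, a 2.21-fold difference. In the other part they stood at 421.4 CPM against 405.6, a 1.04-fold difference (log2 0.06, interval -0.05 to 0.15). In AEG-1fl/fl the chosen spots stood at 1009 against 497.5 CPM in the part that chose them, and at 566.7 against 549.1 CPM in the other part, which was 1.03-fold (log2 0.05, interval -0.04 to 0.13). The intervals in the other part included no difference in both libraries and ended below a log2 ratio of 0.32.

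The parts shared few of the chosen spots. Of the 214 AEG-1ΔMAC spots chosen on the first part, 29 were also chosen on the other (13.6%, exact binomial interval 9.27 to 18.9%), and of the 254 AEG-1fl/fl spots, 24 were (9.45%, 6.15 to 13.7%). When all spots were ordered into 10 equal groups on the first part, Plin2 in that part rose from 87.4 to 814.5 CPM in AEG-1ΔMAC and from 143.7 to 1009 CPM in AEG-1fl/fl. In the other part the 10 groups lay between 377.5 and 429.2 CPM and between 521.7 and 581.3 CPM, with no steady rise. Plin2-rich is therefore used below as the name of a rule, since a Plin2 level above that of the remaining spots was not detectable in independent UMIs at this depth.

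**Figure D2:**
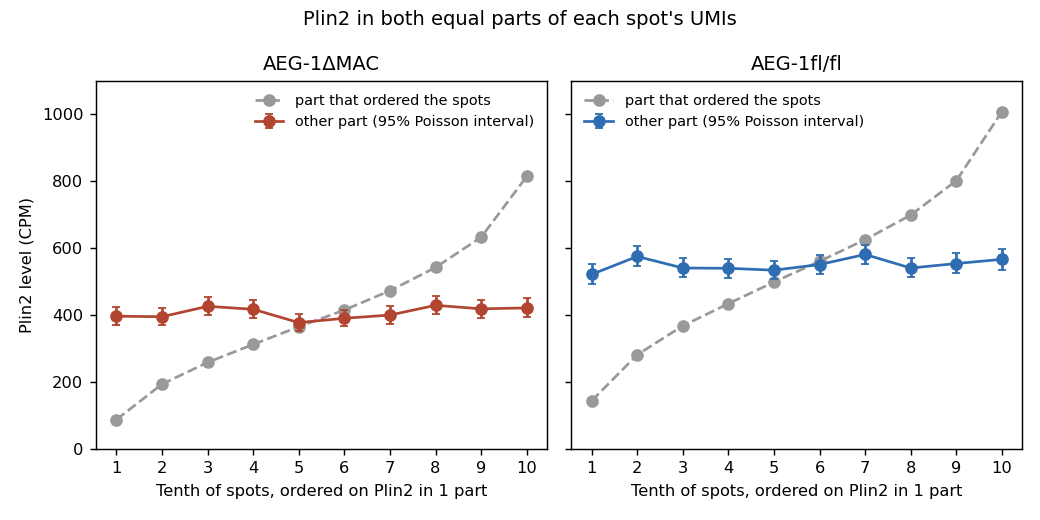
Plin2 level in CPM (vertical axis) in 10 equal groups of spots ordered on the Plin2 share in the first of 2 equal parts of each spot's UMIs (horizontal axis), shown in that part (grey, dashed) and in the other part (coloured, with 95% Poisson intervals), for AEG-1ΔMAC (left) and AEG-1fl/fl (right). The grey points climb to 814.5 and 1009 CPM, whereas the coloured points stay between 377.5 and 429.2 CPM and between 521.7 and 581.3 CPM.

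The spread of Plin2 over spots was slightly above counting and no larger than is usual for genes at its level. No interval was computed for these values. Its variance, relative to the variance that counting alone gives at the depth of each spot, was 1.11 in AEG-1ΔMAC compared with 1.05 in AEG-1fl/fl, which left a variation beyond counting of 11.3% and 6.77% of its mean. Among 325 genes measured within 2-fold of Plin2's level the median ratio was 1.11 and 1.09, and 52.0% and 71.7% of them lay above Plin2. The ratio rises with a gene's UMIs per spot, so for genes at other levels the variation beyond counting is given in brackets. Zonated genes spread far more than Plin2. Oat, an ornithine aminotransferase of zone 3, had a ratio of 15.4 and 10.9 (103% and 121%). Cyp2f2, a zone 1 cytochrome P450, had 13.4 and 7.60 (48.6% and 39.1%). Other lipid droplet genes were chosen for display after their values were seen. Cideb had a ratio of 1.02 and 1.05 (4.67% and 7.22%), Plin3 of 0.98 and 0.99 (0% and 0%), and Plin5 of 1.03 and 1.04 (31.5% and 40.9%). Fitm1, which helps fat enter droplets from the endoplasmic reticulum, was more uneven, at 1.67 and 1.72 (86.7% and 106%).

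**Figure D3:**
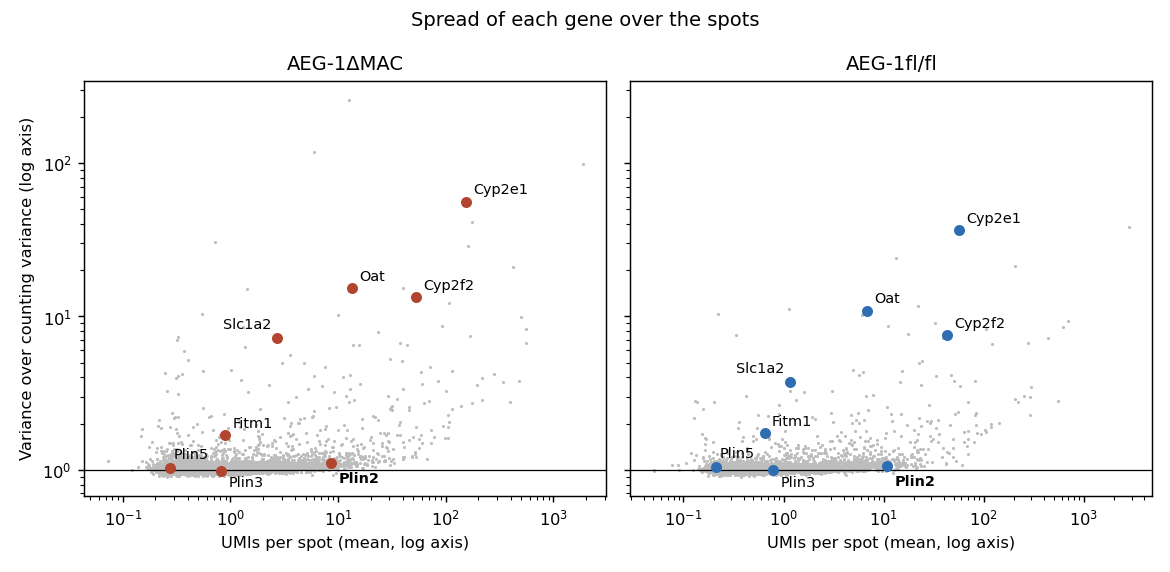
Variance of each gene over spots divided by its counting variance (vertical log axis) against its mean UMIs per spot (horizontal log axis) for AEG-1ΔMAC (left) and AEG-1fl/fl (right), with the line at 1 marking counting variance alone and named genes in colour. Plin2 lies next to the line at 1.11 and 1.05, and Oat lies at 15.4 and 10.9.

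The first question was where Plin2-rich spots sat in the lobule. Spot positions were not used here, and spots were ordered within each library by an index, the mean of zone 3 markers (Cyp2e1, Cyp1a2 and Oat) minus the mean of zone 1 markers (Arg1, Cyp2f2, Gls2, Hal, Hsd17b13 and Pck1). In AEG-1ΔMAC the 3 equal parts of this order, from zone 1 to zone 3, held 71, 65 and 78 Plin2-rich spots. The zone 3 part held 36.4% (interval 29.995 to 43.3%) of them. In AEG-1fl/fl the parts held 62, 76 and 116, so that the zone 1 part held 24.4% (19.3 to 30.2%) and the zone 3 part 45.7% (39.4 to 52.0%).

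The tilt in AEG-1fl/fl lay at the zone 3 end. Of 10 equal groups along the index, the last held 51 of 254 Plin2-rich spots (20.1%, 15.3 to 25.5%) and the one before it 35, whereas the first 8 held from 18 to 27 each. In AEG-1ΔMAC the last group held 23 of 214 (10.7%), and the 10 groups held from 14 to 26. An index from landmark genes that the first index did not use gave 44.9% in the zone 3 part for AEG-1fl/fl and 34.6% for AEG-1ΔMAC. With it the last 2 of 10 groups of AEG-1fl/fl held 45 and 46 Plin2-rich spots. Depth was made equal by ranking spots of at least 10000 UMIs after thinning them to that number. The zone 3 part then held 41.2% (34.9 to 47.6%) of the chosen spots in AEG-1fl/fl. In AEG-1ΔMAC it held 38.9% (32.2 to 45.8%), so the libraries lay closer together than without thinning. The difference between the libraries was not tested, since each is 1 section.

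Plin2 itself was also summed over all kept spots along the index. This uses the values that chose the Plin2-rich spots, so it describes their position again and is not separate support for it. In AEG-1ΔMAC it was 399.4 CPM in the zone 1 part, 410.7 in the middle and 414.5 in the zone 3 part, a log2 ratio of zone 3 over zone 1 of 0.05 (0.00 to 0.10). In AEG-1fl/fl it was 525.2, 541.3 and 575.7 CPM, a log2 ratio of 0.13 (0.09 to 0.17). Over the 10 groups of AEG-1fl/fl it was highest in the last, at 610.7 CPM against 522.6 to 574.7 CPM in the others. With the landmark index the last 2 groups were alike, at 597.3 and 598.6 CPM, against 514.2 to 548.2 CPM in the others. The last group of the first index was also the shallowest, with a median of 14763 UMIs per spot against 17336.5 to 20271.5 in the others. In AEG-1ΔMAC the groups lay between 392.4 and 423.4 CPM.

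**Figure D4:**
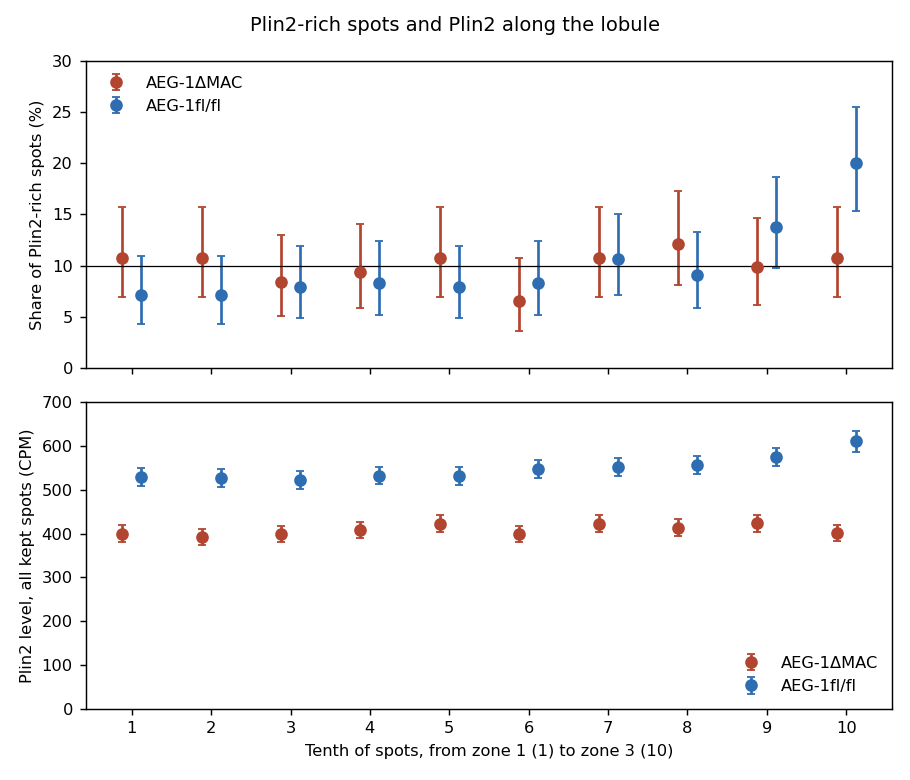
Share of Plin2-rich spots in percent (top, exact binomial 95% intervals, line at the 10% that an even spread gives) and Plin2 level over all kept spots in CPM (bottom, 95% Poisson intervals) in 10 equal groups of spots from zone 1 to zone 3 (horizontal axis). AEG-1fl/fl reaches 20.1% and 610.7 CPM in the last group, and AEG-1ΔMAC stays between 392.4 and 423.4 CPM.

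The lobule gradient depended on what Plin2 was divided by. The 50 most abundant genes, which include Alb and other secreted hepatocyte proteins, took 50.8% of UMIs in the zone 1 part and 47.4% in the zone 3 part of AEG-1fl/fl, and 46.3% and 42.0% in AEG-1ΔMAC. With these genes left out of the total, the log2 ratio of zone 3 over zone 1 became 0.04 (-0.01 to 0.08) in AEG-1fl/fl and fell to -0.06 (-0.11 to -0.01) in AEG-1ΔMAC. Spots ranked on this total placed 36.2% (30.3 to 42.5%) of the Plin2-rich spots of AEG-1fl/fl in the zone 3 part and 26.6% (20.8 to 33.1%) in AEG-1ΔMAC. A pericentral tilt was thus seen in AEG-1fl/fl on the scale of all UMIs and was not detectable without these genes. In AEG-1ΔMAC, leaving them out gave less Plin2 in the zone 3 part than in the zone 1 part. Its zone 3 part then also held less than an even share of the Plin2-rich spots.

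Across all genes, the profile of Plin2-rich spots was close to that of the remaining spots. With Plin2 left out, 6932 genes averaged 10 CPM or more and were compared. A gene was said to pass where its log2 ratio reached 0.32 in size and its interval lay on the same side of 0. In AEG-1ΔMAC 48 genes were higher in Plin2-rich spots by this measure (0.692%) and 103 lower (1.49%). In AEG-1fl/fl 92 were higher (1.33%) and 83 lower (1.2%). A 95% interval alone leaves 2.5% of genes on each side by counting error, but the genes counted here also had to reach a size. The shares are therefore not comparable with that figure, and the share that counting error gives under the full rule is not reported here. Among the 2180 genes at 50 CPM or more, 92.2% and 88.3% lay within 1.1-fold, and the median log2 ratio was -0.01 in AEG-1ΔMAC compared with 0.01 in AEG-1fl/fl.

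Only 8 genes passed in both libraries in the same direction, and all averaged below 50 CPM. The 3 higher genes (0.0433%) were Fam107b, Cyp2a4 (1 of a family of similar cytochromes) and Add3, and the 5 lower genes (0.0721%) were Hook1, Fam32a, Vps11, Adpgk and Nsrp1. They are named after their values were seen. Add3, which encodes the membrane skeleton protein adducin gamma, stood at 22.6 against 17.3 CPM in AEG-1ΔMAC (log2 0.39, 0.06 to 0.70) and at 23.0 against 15.1 CPM in AEG-1fl/fl (log2 0.61, 0.30 to 0.91). Hook1, a linker of cargo to microtubule motors, stood at 10.7 against 14.6 CPM (log2 -0.45) and at 9.29 against 13.5 CPM (log2 -0.54). No gene passed in both libraries at 1.5-fold or among the top 20% of spots by Plin2.

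Lipid droplet genes at 10 CPM or more differed little between Plin2-rich and remaining spots. Of 23 listed droplet proteins 16 reached 10 CPM, of which none passed in AEG-1ΔMAC. In AEG-1fl/fl 1 of these 16, Fitm1, was higher, beside 1.33% of all genes compared. The median log2 ratio of the 16 was 0.02 and 0.04, beside -0.01 and 0.01 over all 6932 genes. Fitm1 stood at 42.3 against 42.1 CPM in AEG-1ΔMAC and at 44.5 against 31.4 CPM in AEG-1fl/fl (log2 0.50, 0.28 to 0.71). When remaining spots were weighted to the same lobule position, as described below, its log2 ratio in AEG-1fl/fl was 0.02.

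The intervals of the nearest relatives of Plin2 included no difference. Plin3, the coat protein found on most small droplets, stood at 38.0 against 38.7 CPM in AEG-1ΔMAC (log2 -0.03, -0.27 to 0.21) and at 44.2 against 39.4 CPM in AEG-1fl/fl (log2 0.17, -0.05 to 0.38). Plin5, which joins droplets to mitochondria, stood at 11.9 against 13.2 CPM and at 10.2 against 10.7 CPM (log2 -0.15 and -0.07). Cideb, which acts in droplet growth and in lipoprotein lipidation, had narrow intervals, with log2 ratios of 0.07 (0.00 to 0.13) and 0.06 (-0.01 to 0.12). Hsd17b13, a droplet dehydrogenase that is also 1 of the zone 1 markers, was at log2 0.06 in AEG-1ΔMAC but -0.15 (-0.21 to -0.09) in AEG-1fl/fl.

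The hydrolases and their partners at 10 CPM or more differed little, with 1 exception in AEG-1fl/fl. Ldah, a droplet-associated hydrolase, stood at 35.9 against 34.0 CPM in AEG-1ΔMAC (log2 0.08, -0.17 to 0.32) and at 43.1 against 34.6 CPM in AEG-1fl/fl (log2 0.32, 0.09 to 0.53), just under the size asked for, and at 0.28 (0.06 to 0.50) at equal lobule position. Pnpla2, the main triglyceride lipase of the droplet, had log2 ratios of 0.14 (-0.03 to 0.31) and -0.05 (-0.24 to 0.13). Its coactivator Abhd5 had 0.15 (-0.07 to 0.35) and 0.19 (-0.04 to 0.42), and its inhibitor G0s2 had 0.00 and 0.02. The coats and inhibitors typical of fat-laden hepatocytes or adipocytes were measured at few UMIs: Plin4 at 1.66 and 1.77 CPM in Plin2-rich spots, Cidec at 0.24 and 0.66 CPM and Hilpda at 1.90 and 3.54 CPM, below the 10 CPM asked for a comparison. Plin1 and Cidea had 0 UMIs in the Plin2-rich spots of both libraries. The genes of this paragraph other than Abhd5, and Plin3 and Cideb above, lie outside the rule for named genes and were chosen after their values were seen.

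**Figure D5:**
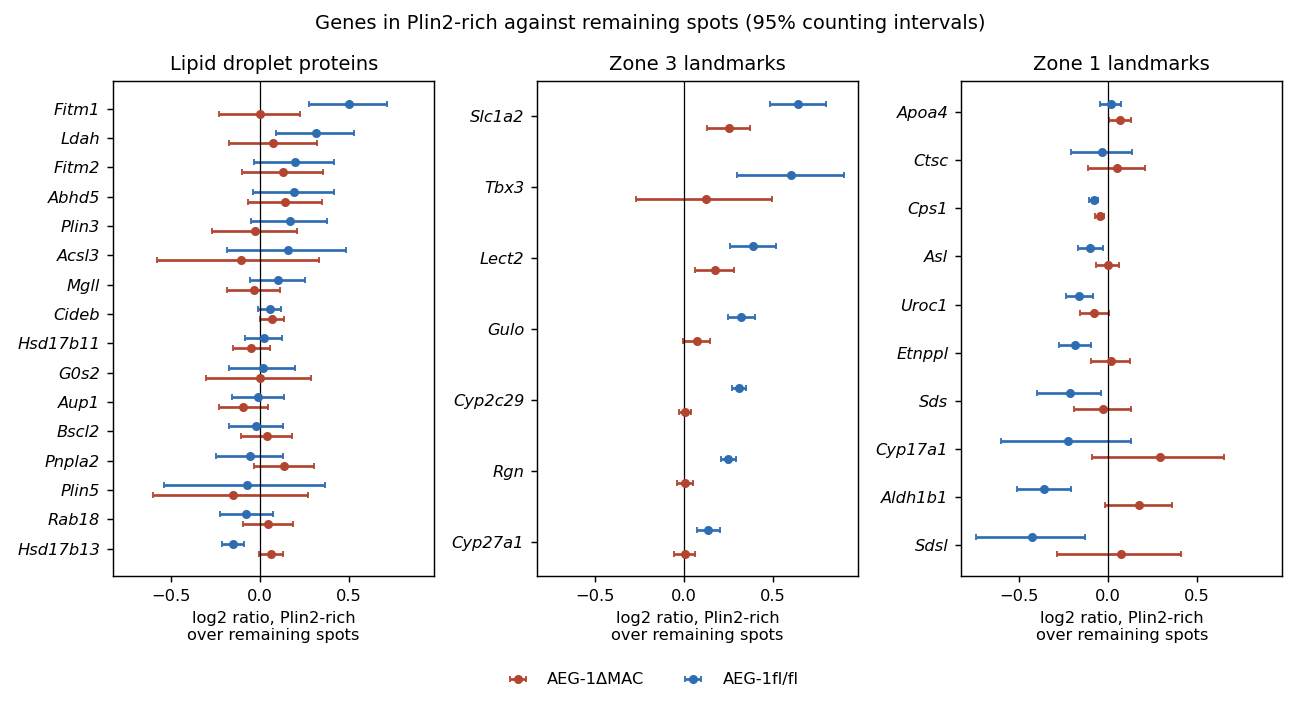
Log2 ratio of CPM in Plin2-rich over remaining spots (horizontal axis, 95% counting intervals) for the 16 lipid droplet protein genes (left), 7 of the zone 3 landmarks (middle) and 10 zone 1 landmarks (right) at 10 CPM or more, in AEG-1ΔMAC (red) and AEG-1fl/fl (blue). Lipid droplet genes centre on 0 in both libraries, while the zone 3 landmarks shown lie to the right in AEG-1fl/fl, from 0.14 to 0.64.

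No gene passed in the pathways that feed and drain the droplet. None of 14 lipogenesis genes, 7 triglyceride synthesis genes, 13 genes of fatty acid uptake and binding, 12 of lipoprotein assembly or 20 of fatty acid oxidation and ketogenesis passed in either library. Their median log2 ratios ran from -0.05 to 0.01 in AEG-1ΔMAC and from 0.01 to 0.04 in AEG-1fl/fl. Within triglyceride synthesis, Dgat2, which adds the last fatty acid, had log2 ratios of -0.04 (-0.10 to 0.02) and 0.01 (-0.06 to 0.08), and Gpam, which starts the pathway, had -0.06 and 0.07. The remaining members of that list, Gpat4, Agpat2, Agpat3, Lpin1 and Lpin2, lay between -0.09 and 0.09.

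Plin2 is a known target of PPARα, the nuclear receptor of fatty acids. Of 22 other PPARα targets none passed in AEG-1ΔMAC, while in AEG-1fl/fl 1 was higher, beside 1.33% of all genes compared. The medians were -0.01 and 0.08, and at equal position -0.02 and -0.03. The 1 gene was Cyp4a14, a fatty acid hydroxylase whose reads may be shared with other Cyp4a genes, at 184.7 against 147.2 CPM in AEG-1fl/fl (log2 0.33, 0.22 to 0.43, and -0.02 at equal position) and at 82.2 against 86.7 CPM in AEG-1ΔMAC (log2 -0.08, -0.24 to 0.08). At the other end of that list in AEG-1fl/fl stood Cpt1a, which lets fatty acids into mitochondria, with a log2 ratio of -0.11 (-0.22 to 0.00).

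None of 16 cholesterol synthesis genes or of 8 hypoxia response genes passed in AEG-1ΔMAC. In AEG-1fl/fl 1 of each list was higher, beside 1.33% of all genes compared. These were Fdft1, which makes squalene, with a log2 ratio of 0.46 (0.10 to 0.79) and 0.39 (0.04 to 0.73) at equal position, and Egln3, an oxygen-sensing prolyl hydroxylase, with 0.50 (0.19 to 0.81). At equal position Egln3 went to 0.23 (-0.09 to 0.54) and no hypoxia gene passed. Of 10 acute phase genes 2 were lower in AEG-1ΔMAC, beside 1.49% of all genes compared. These were Orm2 at 26.4 against 33.4 CPM (log2 -0.34) and Saa3 at 9.26 against 15.4 CPM (log2 -0.74, -1.24 to -0.27). Both have close paralogs with which reads may be shared. None of the ER stress, oxidative stress, respiratory chain, gluconeogenesis or bile acid synthesis genes compared passed in either library.

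Zone genes stood apart in AEG-1fl/fl, and whether the libraries differ in this was not tested. Of 8 zone 3 landmarks none passed in AEG-1ΔMAC, while in AEG-1fl/fl 4 were higher, beside 1.33% of all genes compared. The medians were 0.08 and 0.32. Slc1a2, a glutamate transporter of pericentral hepatocytes, stood at 86.5 against 55.4 CPM in AEG-1fl/fl (log2 0.64, 0.49 to 0.80) and at 149.1 against 125.2 CPM in AEG-1ΔMAC (log2 0.25, 0.13 to 0.37). It led the genes at 50 CPM or more that were higher in both libraries. Lect2, a secreted liver protein, had log2 ratios of 0.39 in AEG-1fl/fl and 0.17 in AEG-1ΔMAC.

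Other zone 3 landmarks followed. In AEG-1fl/fl, Tbx3, a transcription factor, had a log2 ratio of 0.60 (0.30 to 0.90), and Cyp2c29, a drug-metabolising cytochrome whose reads may be shared within its family, had 0.31. Gulo, the last enzyme of vitamin C synthesis, had 0.32, Rgn, a calcium-binding lactonase, 0.25 and Cyp27a1, a sterol hydroxylase of bile acid synthesis, 0.14. In AEG-1ΔMAC these 5 genes lay between 0.01 and 0.12. Of the markers in the index, Oat stood at 497.3 against 328.6 CPM in AEG-1fl/fl (log2 0.60) and at 691.2 against 625.1 CPM in AEG-1ΔMAC (log2 0.15), and Cyp2e1 and Cyp1a2 had log2 ratios of 0.39 and 0.40 against 0.01 and 0.01.

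The zone 1 side lay the opposite way in AEG-1fl/fl. Of 10 zone 1 landmarks 2 were lower there, beside 1.2% of all genes compared, and 0 in AEG-1ΔMAC. The medians were -0.17 and 0.03. Aldh1b1, a mitochondrial aldehyde dehydrogenase, stood at 82.9 against 106.1 CPM in AEG-1fl/fl (log2 -0.36, -0.51 to -0.20) and at 61.5 against 54.5 CPM in AEG-1ΔMAC (log2 0.17, -0.02 to 0.36). Sdsl, a serine dehydratase-like enzyme, had -0.43 in AEG-1fl/fl and 0.07 in AEG-1ΔMAC. The 6 zone 1 markers had log2 ratios from -0.21 to -0.14 in AEG-1fl/fl and from -0.04 to 0.06 in AEG-1ΔMAC, and 0 passed. In zone 2, the hepcidin genes Hamp and Hamp2 and the growth factor binding protein Igfbp2 passed in neither library, at -0.17, -0.07 and -0.03 in AEG-1fl/fl and 0.00, 0.03 and -0.10 in AEG-1ΔMAC.

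Plin2-rich spots were also set against the top 10% of spots by the zone 3 genes Slc1a2 and Oat, and by the zone 1 genes Sds, Hal and Gls2. In AEG-1fl/fl, 48 of 254 Plin2-rich spots (18.9%, 14.3 to 24.3%) were among the first and 18 (7.09%, 4.25 to 10.97%) among the second. In AEG-1ΔMAC these were 28 of 214 (13.1%, 8.87 to 18.4%) and 23 (10.7%, 6.94 to 15.7%). Because all sets hold 10% of spots, an even spread would give 10%. Both AEG-1ΔMAC intervals include it, as does the AEG-1fl/fl interval for the zone 1 genes.

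To ask what was left once lobule position was equal, the remaining spots were weighted to the Plin2-rich spots over the 10 groups of the index. In AEG-1ΔMAC 47 genes were then higher (0.678%) and 114 lower (1.64%), and in AEG-1fl/fl 46 were higher (0.664%) and 97 lower (1.4%). Of the 92 genes higher in AEG-1fl/fl before weighting 39 were still counted, against 45 of 48 in AEG-1ΔMAC. Both libraries shared 1 higher gene (0.0144%), Add3, and 4 lower genes (0.0577%), Hook1, Fam32a, Adpgk and Nsrp1. Slc1a2 and Lect2, which did not enter the index, went to log2 ratios of 0.00 and -0.01 in AEG-1fl/fl, and Tbx3 to 0.25.

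At 50 CPM or more the genes that led at equal position had small ratios in both libraries. Idh3g, a subunit of the citric acid cycle enzyme isocitrate dehydrogenase, had log2 ratios of 0.14 and 0.15, and Nfe2l2, the transcription factor of the oxidative stress response, had 0.16 and 0.14. Ptdss1, which makes phosphatidylserine, had 0.13 and 0.17, and the mitochondrial import protein Timm9 had 0.20 and 0.13. On the lower side stood Isoc2a at -0.23 and -0.25, the reticulon Rtn3 at -0.18 and -0.18, the integrin subunit Itgb5 at -0.17 and -0.18 and the fibrillar collagen Col3a1 at -0.16 and -0.25. None of these 8 genes passed in either library.

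Markers of other cell types were read beside these values. The summed level of 11 Kupffer cell markers was 1015 against 1030 CPM in AEG-1ΔMAC, and 1037 against 1051 CPM in AEG-1fl/fl, and 0 of the 10 compared passed. Of 10 stellate cell markers 1, Col1a1, was lower in AEG-1ΔMAC (log2 -0.48), beside 1.49% of all genes compared. None passed in AEG-1fl/fl, where 9 of the 10 markers had ratios above 0. Their sum was 561.8 against 544.4 CPM in AEG-1ΔMAC (log2 0.05, -0.02 to 0.11) and 605.0 against 574.2 CPM in AEG-1fl/fl (log2 0.08, 0.02 to 0.13). Dcn, the decorin gene of that list, was among the leading genes at 50 CPM or more in both libraries, with log2 ratios of 0.16 (0.01 to 0.31) and 0.18 (0.03 to 0.33), and did not pass. At equal position it had 0.16 (0.01 to 0.31) and 0.07 (-0.08 to 0.22). Col3a1, also of that list, went the other way, at -0.16 (-0.36 to 0.03) and -0.13 (-0.29 to 0.03). The median of the list was 0.01 and 0.08, and 0.02 and 0.01 at equal position. None of 8 sinusoidal endothelium markers passed in either library. Of the lipid-associated macrophage markers 2, Cd9 and Ctsd, reached 10 CPM and neither passed, and Trem2 and Gpnmb had 3 and 2 UMIs in the Plin2-rich spots of AEG-1ΔMAC and 1 and 0 in those of AEG-1fl/fl. In spots, fewer cells of a type and less RNA per cell cannot be told apart.

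Spp1 was lower in Plin2-rich spots of AEG-1fl/fl and carried the sum of the bile duct list. The summed level of 7 cholangiocyte markers was 60.6 CPM in Plin2-rich against 93.3 CPM in remaining spots (log2 -0.62, -0.80 to -0.45), and in AEG-1ΔMAC it was 90.0 against 89.8 CPM (log2 0.00). Only Spp1, the osteopontin gene that bile duct cells and some macrophages express, and Sox9 reached 10 CPM. Spp1 stood at 31.4 against 59.4 CPM in AEG-1fl/fl (log2 -0.92, -1.17 to -0.68), -0.66 at equal position, and at 68.9 against 66.9 CPM in AEG-1ΔMAC. Sox9 had log2 ratios of -0.03 in AEG-1fl/fl and -0.06 in AEG-1ΔMAC. Without Spp1, a sum chosen after seeing the data, the other 6 markers stood at 29.2 against 33.9 CPM in AEG-1fl/fl (log2 -0.21, -0.48 to 0.04) and at 21.1 against 22.9 CPM in AEG-1ΔMAC (log2 -0.12, -0.45 to 0.20). The part of bile ducts in the zone values of AEG-1fl/fl was not tested.

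Vessel wall markers summed to 60.1 against 76.8 CPM in AEG-1ΔMAC (log2 -0.35, -0.55 to -0.17) and to 44.7 against 50.8 CPM in AEG-1fl/fl (log2 -0.19, -0.40 to 0.02). Of the 3 compared, Tagln, a smooth muscle protein, was lower in AEG-1ΔMAC (log2 -0.67), beside 1.49% of all genes compared. Gsn and Vwf did not pass. Of 2 lymphocyte genes compared, Ighm was higher in AEG-1ΔMAC (log2 0.47, 0.05 to 0.86), beside 0.692% of all genes compared, and Igkc had 0.07. None of 6 neutrophil markers reached 10 CPM. Their sums, which rest on 36 and 67 UMIs in Plin2-rich spots, were 8.55 against 5.75 CPM in AEG-1ΔMAC (log2 0.57, 0.02 to 1.08) and 14.8 against 20.0 CPM in AEG-1fl/fl (log2 -0.43, -0.81 to -0.07). Adipocyte markers had 0 UMIs in the Plin2-rich spots of AEG-1ΔMAC and 2 in those of AEG-1fl/fl.

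The last question was how the genotypes differed within Plin2-rich spots. Over all kept spots, Plin2 was lower in AEG-1ΔMAC, at 408.2 CPM (402.3 to 414.1) against 547.2 CPM (540.7 to 553.7) in the AEG-1fl/fl section. The log2 ratio was -0.42 (-0.45 to -0.40). It was -0.40, -0.40 and -0.47 from the zone 1 part to the zone 3 part, and -0.56 over all kept spots with the 50 most abundant genes left out of the total. A single Plin2 threshold for both libraries, 725.1 CPM, which marks the top 10% of all kept spots together, was passed by 63 AEG-1ΔMAC spots (2.94%, 2.27 to 3.75%) and 405 AEG-1fl/fl spots (15.9%, 14.5 to 17.4%). The log2 ratio of Plin2 between the sections was larger in size than that of chosen over remaining spots in independent UMIs. The latter depends on how well 1 part of the UMIs ranks the spots, so the 2 are not like measures.

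Among the other genes, 90 were at least 2-fold higher (1.3%) and 42 lower (0.606%) in Plin2-rich spots of AEG-1ΔMAC than in those of AEG-1fl/fl. The same comparison in the remaining spots of the same sections gave 90 higher (1.3%) and 38 lower (0.548%), with 74 and 31 genes in common. With factors from the trimmed mean of M values (TMM) the split was 73 higher and 56 lower, and with the 50 most abundant genes left out of the total it was 71 and 60. Over all 6932 genes the log2 ratio had a median of 0.12 in Plin2-rich spots and 0.15 in the remaining ones. Most genes that differed between genotypes in Plin2-rich spots thus also differed in the remaining spots, and genotype, animal and section cannot be told apart.

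Highest in AEG-1ΔMAC was Gadd45g, a growth arrest gene, which stood at 213.2 against 8.63 CPM (log2 4.63, 4.16 to 5.13), beside a log2 ratio of 4.43 in remaining spots. Alas1, the first enzyme of haem synthesis, stood at 304.4 against 22.8 CPM (log2 3.74), and the hepatocyte transcription factor Onecut1 at 126.1 against 11.1 CPM (log2 3.51). Phlda1 (3.02), Foxq1 (2.90), Errfi1 (2.10), Arid5b (2.07) and Mup12 (2.06) followed, the last being 1 of a family of near-identical genes whose reads may be shared.

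Lowest in AEG-1ΔMAC was Tff3, a secreted trefoil factor, at 9.97 against 314.1 CPM (log2 -4.98, beside -5.23 in remaining spots). Lpl, the lipoprotein lipase, stood at 48.7 against 202.4 CPM (log2 -2.06), the carrier Fabp5 at 33.2 against 116.1 CPM (-1.80) and Scd1, which desaturates stearate, at 735.4 against 2411 CPM (-1.71). Depp1 (-2.04), Efna1 (-1.79) and Egr1 (-1.78) were also lower.

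The lipid lists were compared between genotypes in the same spots, where 1.3% of all genes compared were higher and 0.606% lower at 2-fold. Of 16 lipid droplet genes 0 were higher and 1 lower at 2-fold, the lipase inhibitor G0s2 at 25.6 against 59.1 CPM (log2 -1.20), which was also -1.19 in remaining spots. Of 14 lipogenesis genes 1 was higher, Thrsp (1.16), and 1 lower, Scd1, with a median of -0.53 beside 0.12 over all genes and -0.41 for the list in remaining spots. Of 7 triglyceride synthesis genes 1 was higher, the phosphatidate phosphatase Lpin1 at 117.1 against 29.0 CPM (log2 2.01, and 2.12 in remaining spots). PPARα targets had a median of -0.01 and 1 lower gene, Cyp4a14 (-1.17). Of 13 genes of fatty acid uptake and binding 2 were lower, Lpl and Fabp5, with a median of -0.12 beside -0.06 for the list in remaining spots.

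The ratio of Plin2-rich over remaining spots was finally compared between the libraries, as AEG-1ΔMAC over AEG-1fl/fl. By the same measure it was higher for 79 genes (1.14%) and lower for 161 (2.32%). Spp1 was the highest at 50 CPM or more (log2 0.96, 0.66 to 1.27), followed by Aldh1b1 (0.53), Tedc2 (0.43), Ccnl1 (0.42), Mtmr9 (0.35) and Ccdc25 (0.35). The lowest were Adhfe1 (-0.47), Oat (-0.45, -0.54 to -0.37), S1pr1 (-0.43), Mark3 (-0.42), S100a10 (-0.41) and Cyp4a14 (-0.40). At equal lobule position Cyp4a14 went to -0.05 (-0.24 to 0.14) and Aldh1b1 to 0.24 (0.00 to 0.49), both below the size asked for, while Spp1 stayed at 0.71 (0.41 to 1.02). Oat went to 0.07 (-0.02 to 0.15), but it is a marker of the index that was held equal.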

How the data were processed

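Formalin-fixed, paraffin-embedded liver sections were measured with the 10x Visium mouse probe assay, with 1 library per genotype. Per the labels and methods, the authors ran Space Ranger 2.0.1 against the mm10 reference transcriptome and its probe set and used Seurat, given as 4.3.0 in the submitters' processing notes. The deposited values are raw counts of UMIs per gene and spot, limited to spots under tissue. Probe counts depend on probe binding, so levels were compared gene by gene.

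Spots with at most 50000 UMIs and 100 to 7000 genes were kept (2140 of 2149 and 2540 of 2543). UMIs were summed over spots and scaled to CPM. Ratios of CPM carry exact conditional binomial 95% intervals, shares Clopper-Pearson intervals and levels Poisson intervals. UMIs remove PCR copies, so intervals cover counting error only. Comparisons took genes averaging 10 CPM or more, which is 42.1 and 45.2 UMIs in the Plin2-rich spots. A gene passed at a log2 ratio of 0.32 (2-fold between genotypes) with its interval on the same side of 0. No p-value was computed. The index for lobule position used log-normalised values (10000 UMIs), scaled within each library.

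Genes were named at 50 CPM or more by the smaller ratio of the 2 libraries in the same direction (12 each way, 8 at equal position), by the genotype ratio (8 each way) and by the ratio of ratios (6 each way), plus the ends of each list and all genes of lists with at most 8 compared. The members and lists were chosen with earlier results of these data known. Genes of the lists not found by symbol, such as Glul, Elovl6 and Fdps, were not analysed here, and 2 genes that the rule names are not reported here. Coordinates are from GENCODE M21. Calculations used Python 3.11.15, NumPy 2.4.6, SciPy 1.17.1, pandas 2.3.3 and edgeR 4.0.16 in R 4.3.3 (TMM factors only), and were tested on simulated counts.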

Additional observations from a re-analysis of the deposited data

Results flagged for a closer look

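Of the 6932 genes compared, 3 passed in opposite directions between Plin2-rich and remaining spots in the 2 libraries, and were looked at for that reason after their values were seen. Gipc1, a scaffold protein of membrane trafficking, had a log2 ratio of -0.58 in AEG-1ΔMAC but 0.43 in AEG-1fl/fl. Rbms2, an RNA-binding protein, had 0.35 and -0.54. Arhgap6 had 0.50 and -0.50. Their mean levels were 11.3, 16.8 and 11.7 CPM, close to the minimum of 10 CPM, and their Plin2-rich spots held from 31 to 92 UMIs. The difference between the libraries was not tested, since each genotype had 1 section.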

How the results depend on the processing

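No paired analysis was possible because each genotype had 1 library, and for the same reason no library could be left out. Of the counts and shares recomputed under alternatives, 48 stayed within 1.5 times or within their interval and 31 moved. The number of genes apart between Plin2-rich and remaining spots, in either direction, was 151 in AEG-1ΔMAC, 175 in AEG-1fl/fl and 8 in both. With the top 5% of spots it was 263 in AEG-1fl/fl and 13 in both, and with the top 20% it was 88 and 0. Ranking without the 50 most abundant genes gave 233 in AEG-1ΔMAC and 4 in both. Thinning spots to 10000 UMIs gave 2 in both, as did choosing spots on 1 part of the UMIs. At 50 CPM or more the counts were 1, 9 and 0, at 1 CPM or more 323, 360 and 13, at 1.5-fold 18, 21 and 0, and at 1.1-fold 307, 423 and 17. Other levels, sizes and shares of spots change by construction how many genes or spots enter. For ranking without the abundant genes, thinning and choosing on 1 part, the cause was not tested.

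The share of Plin2-rich spots in the zone 3 part went from 36.4% to 26.6% in AEG-1ΔMAC, and from 45.7% to 36.2% in AEG-1fl/fl, when ranking left out the 50 most abundant genes. The log2 ratio of Plin2 between the zone 3 and zone 1 parts went with them from 0.05 to -0.0602 and from 0.13 to 0.0371, an alternative chosen after seeing the data, as was the reading of Plin2 in the other part of the UMIs. At equal position, 5 genes were apart in both libraries, and 3 when the top 10% was taken within each of the 10 groups. Between genotypes, 90 genes were higher and 42 lower at 2-fold, 429 and 153 at 1.5-fold, and 36 and 13 at 50 CPM or more, and 82 were lower with a single Plin2 threshold. For the ratio of ratios, 240 genes fell to 78 at 1.5-fold, and Oat turned from -0.45 to 0.0686 at equal position, where the index that it is part of is held equal by construction. Among lists and single genes, 119 and 55 recomputed values moved, and 1921 and 840 did not. The cause of the other moves was not tested. Depth limited the comparison of genes below 50 CPM, and spot positions, further sections and replicate animals were not analysed here.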
